A study of Mus musculus with 8 samples.

Results

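The cytoplasmic polyadenylation element binding (CPEB) proteins are encoded in the mouse by Cpeb1, Cpeb2, Cpeb3 and Cpeb4, and the mRNA levels of these 4 genes were followed in livers of fasted wild-type (WT) and PLIN5 S155A mice. The members were taken by gene symbol from the deposited table of 45706 genes. All 4 had counts in every mouse and were among the 14629 genes that passed the filter on low counts and were tested. The family was selected because Cpeb4 had a low unadjusted p-value when S155A was compared with WT (unadjusted p = 0.001628, rank 10 of the 14629 genes by edgeR's quasi-likelihood test, adjusted p = 0.993). The S155A against WT values of the members are therefore given as a description, and no test of them is offered as evidence.

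The study profiled bulk RNA from the livers of 8 female C57BL/6J mice, all 4 months old and all fasted overnight, with 4 WT mice and 4 S155A mice. Perilipin 5 (PLIN5) coats lipid droplets and is phosphorylated by protein kinase A at the serine that the edit replaces. The S155A mice carried alanine at that residue in every tissue, from a whole-body knock-in made with CRISPR-Cas9 whose sequence had been checked in a founder mouse. The labels also give each mouse a number. Replicates 1 and 4 of each genotype had low numbers (89 to 123) and replicates 2 and 3 had high numbers (830 to 869), and the labels do not say what the number stands for. Total estimated counts were 39709785 to 54540864 per mouse.

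CPEB proteins bind a short U-rich element, the cytoplasmic polyadenylation element (CPE), in the 3′ untranslated region (UTR) of target mRNAs. Depending on their modification and partners, they either hold the poly(A) tail short and keep the mRNA silent or recruit a cytoplasmic poly(A) polymerase that lengthens the tail and turns translation on. In mouse liver, CPEB4 is known for its link to the circadian clock and to the translation of endoplasmic reticulum (ER) stress mRNAs. The present measurements are of mRNA level alone, so they hold no information on tail length, on translation or on CPEB protein.

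CPEB mRNAs can themselves carry the element that their products bind. The letters TTTTAT or TTTTAAT were searched on the transcript strand of the longest basic coding transcript of each gene (GENCODE M21, GRCm38), and the match nearest to the transcript's 3′ end is shown for each member, with the motif in capitals and the DNA letters in place of U:
Cpeb1: ttgacttttctTTTTAATttaacgattact
Cpeb2: taatttagtttaTTTTATtgttatcttcca
Cpeb3: ggaataaattaaTTTTATgatgctaattct
Cpeb4: gggtaattcattTTTTATtaaagtcatttt

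These sites lie in the 3′ UTR, at chr7:81347256-81347285 (reverse strand) for Cpeb1, chr5:43289554-43289583 (forward) for Cpeb2, chr19:37021506-37021535 (reverse) for Cpeb3 and chr11:31935406-31935435 (forward) for Cpeb4. Their motifs were 242, 153, 227 and 211 bases from the transcript end, in the same order. The whole 3′ UTR held 4 such motifs over 1315 bases in Cpeb1, 24 over 3778 bases in Cpeb2, 6 over 3569 bases in Cpeb3 and 17 over 4102 bases in Cpeb4. All 4 members had a motif in the last 300 bases, 5 of them in Cpeb2 and 1 in each of the others. A motif in that window was present in 36.4% of the 10957 tested genes whose 3′ UTR is at least that long (TTTTAT in 29.7%, TTTTAAT in 11.2%). A match is a description of the letters and not a binding site, and the table does not say which transcript or 3′ end liver uses.

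The genes themselves lie at chr7:81347026-81455465 on the reverse strand (Cpeb1), chr5:43233170-43289724 on the forward strand (Cpeb2), chr19:37021291-37208601 on the reverse strand (Cpeb3) and chr11:31872211-31935634 on the forward strand (Cpeb4). Cpeb4 overlapped no other annotated gene. Cpeb3 overlapped March5 on the opposite strand, which had 2415 to 3610 counts per mouse, and Cpeb2 overlapped the antisense gene Gm7854, which had 3 to 23. The stretch shared with March5 is chr19:37207543-37208601, at the 5′ end of Cpeb3, whereas the March5 counts are of its whole gene. The library kit marks strand, but the strand setting used for counting is not given in the sources used here, so the value of Cpeb3 is the least certain of the 4 in this respect. Cpeb1 overlapped only a pseudogene with 0 counts.

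Plin5, the edited gene, was measured first. Its level was 254, 194, 183 and 194 CPM (counts per 1000000 counts of a library, scaled by the trimmed mean of M-values) in WT replicates 1 to 4 and 457, 276, 192 and 386 CPM in S155A replicates 1 to 4. The groups overlapped, since S155A replicate 3 lay within the WT range. The mean was 206 ± 32.3 CPM in WT and 328 ± 118 CPM in S155A (SD, n = 4 each; log2 fold change 0.67, SE 0.24, edgeR adjusted p = 0.993). A change of 1 codon leaves counts per gene with no mark, so these levels do not check the genotype labels.

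The mean level of Cpeb4 was lower in S155A than in WT livers. WT replicates 1 to 4 had 34.0, 22.8, 26.2 and 33.4 CPM, and S155A replicates 1 to 4 had 17.9, 21.6, 13.8 and 17.1 CPM. Every S155A mouse was below every WT mouse, and the closest pair was WT replicate 2 and S155A replicate 2. The mean was 29.1 ± 5.52 CPM in WT and 17.6 ± 3.21 CPM in S155A (SD, n = 4 each), which is 39.6% lower, with a log2 fold change of -0.73 and an SE of 0.17. After adjustment over all 14629 genes it was not called (edgeR adjusted p = 0.993; 0.169 to 1 over the 16 alternatives). In bulk tissue, fewer cells of a type and less RNA per cell cannot be told apart.

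The other 3 members overlapped between genotypes. Cpeb1, the founding member, best known from oocytes, had 5.26, 5.56, 4.76 and 4.76 CPM in WT and 6.38, 4.32, 3.83 and 4.53 CPM in S155A, so that S155A held both its highest and its lowest mouse. Its mean was 5.08 ± 0.396 CPM in WT and 4.76 ± 1.12 CPM in S155A (SD, n = 4 each; log2 fold change -0.09, SE 0.19). Cpeb2, described as slowing translation elongation as well as binding the CPE, had 18.7, 10.8, 12.2 and 22.2 CPM in WT and 13.6, 12.6, 17.5 and 16.7 CPM in S155A. The WT mice of Cpeb2 spanned the S155A mice on both sides, with means of 16.0 ± 5.39 and 15.1 ± 2.40 CPM (SD, n = 4 each; log2 fold change -0.08, SE 0.23).

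Cpeb3, best known as a translational repressor in neurons, had 5.39, 5.44, 4.82 and 7.97 CPM in WT and 5.12, 4.96, 8.76 and 4.92 CPM in S155A. WT replicate 4 and S155A replicate 3 stood above the other 6 mice, which lay within a narrow range. Its mean was 5.91 ± 1.41 CPM in WT and 5.94 ± 1.88 CPM in S155A (SD, n = 4 each; log2 fold change 0.0058, SE 0.24). Without S155A replicate 3 the log2 fold change of Cpeb3 was -0.24, and without WT replicate 4 it was 0.18.

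Among the 4 members, 1 had an unadjusted p under 0.05, where 3.40% of all tested genes did, and 0 passed after adjustment, where 0% did (0 of 14629 genes, with 497 genes at an unadjusted p under 0.05 and 6 genes called by DESeq2, Cpeb4 not among them). The groups did not overlap for 1 of 4 members, where they did not for 2.30% of genes, and every S155A mouse was below every WT mouse in 1.36% of genes. A log2 fold change below 0 was found in 3 of 4 members and in 51.2% of all genes. Since the family was picked on this contrast, these counts describe it and show nothing more.

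**Figure D1:**
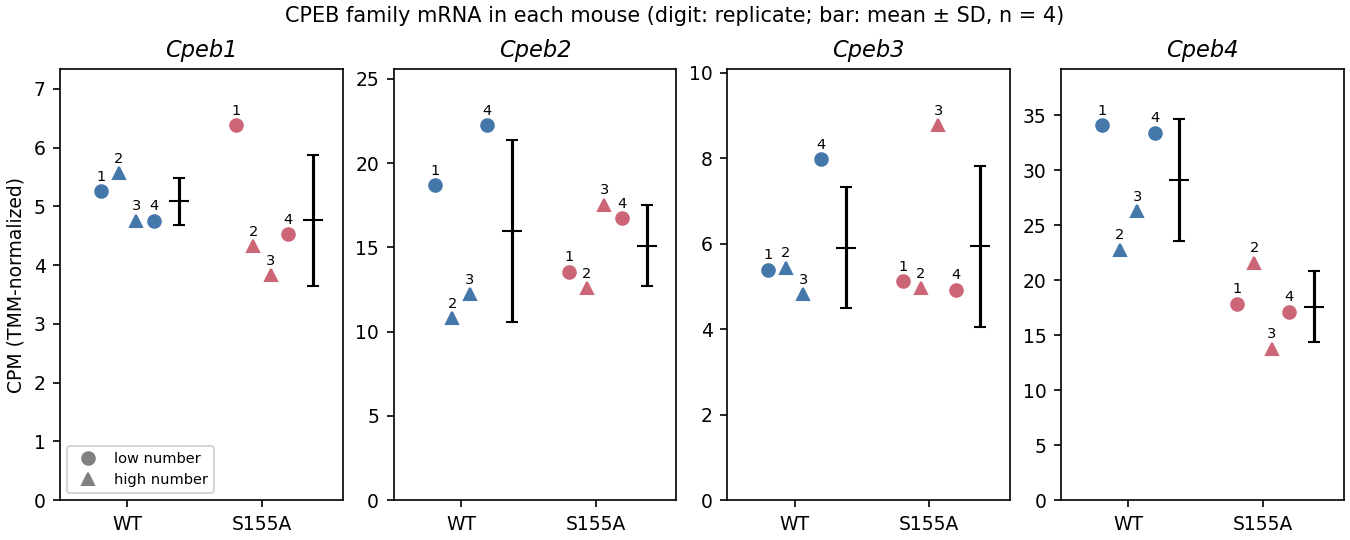
TMM-normalized CPM of Cpeb1, Cpeb2, Cpeb3 and Cpeb4 in each of the 8 mice, with the replicate number above each point, circles for low and triangles for high label numbers, and the mean ± SD (n = 4) beside each genotype. The S155A mice of Cpeb4 sit at 13.8 to 21.6 CPM, all below the WT mice at 22.8 to 34.0 CPM, while the groups overlap in the other 3 panels.

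The genotype difference was then read within each label number series, where 2 mice stand for each genotype, as the difference in mean log2 CPM. For Cpeb4 it was -0.95 among the low-numbered and -0.50 among the high-numbered mice. Cpeb4 was the 1 member lower in S155A in both series, where 23.4% of all genes were. This outcome was fixed for Cpeb4, since every S155A mouse was below every WT mouse, and it adds no support. In WT, Cpeb4 was higher in the low-numbered mice (mean 33.7 CPM) than in the high-numbered mice (24.5 CPM), whereas the S155A means were 17.5 and 17.7 CPM. The other members changed sign between series: 0.10 in the low and -0.34 in the high series for Cpeb1, -0.43 and 0.37 for Cpeb2, and -0.38 and 0.36 for Cpeb3.

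Whether the genotype difference itself differed between series was tested with an interaction term, which the choice of the family had not used. The interaction for Cpeb2 was 0.82 on the log2 scale (SE 0.29, unadjusted p = 0.0195, adjusted p = 0.353 by edgeR). In the low series both S155A mice were below both WT mice for Cpeb2, and in the high series both were above. With 2 mice per genotype in a series, such separation can arise by chance, and the share of all genes showing it was not counted. Cpeb3 had an interaction of 0.83 (SE 0.43), Cpeb4 of 0.48 (SE 0.29) and Cpeb1 of -0.46 (SE 0.35), with edgeR adjusted p-values of 0.524, 0.577 and 0.662. These values moved when 1 mouse was left out: Cpeb3 to 0.36 without S155A replicate 3, Cpeb4 to 0.11 without S155A replicate 2 and to 0.76 without S155A replicate 3, and Cpeb1 to -0.19 without S155A replicate 1. The interaction of Cpeb2 ranged from 0.56 (without S155A replicate 3) to 1.04 (without S155A replicate 2). No member was called, and 0% of all genes were, while 1 of 4 members and 11.1% of all genes had an unadjusted p under 0.05.

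The high-numbered mice were also compared with the low-numbered mice across both genotypes (n = 4 each). Cpeb2 averaged 17.8 ± 3.63 CPM in the low and 13.3 ± 2.93 CPM in the high series (log2 difference -0.42, SE 0.19, edgeR adjusted p = 0.410, two-sided exact permutation p = 0.0857). Cpeb4 averaged 25.6 ± 9.38 and 21.1 ± 5.27 CPM (-0.23, SE 0.16, adjusted p = 0.590, exact permutation p = 0.486). Cpeb1 had a difference of -0.19 (SE 0.18, adjusted p = 0.720, exact permutation p = 0.343). Leaving out 1 mouse moved the difference of Cpeb1 to between -0.28 (without WT replicate 2) and -0.035 (without S155A replicate 1), that of Cpeb4 to between -0.41 (without S155A replicate 2) and -0.13 (without WT replicate 2), and that of Cpeb2 to between -0.61 (without S155A replicate 3) and -0.29 (without WT replicate 4).

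Cpeb3 had a difference of 0.033 (SE 0.25, adjusted p = 0.974, exact permutation p = 0.886), whose sign turned with the scaling (-0.034 with library size alone). The mice of the series overlapped for all 4 members, and did not for 6.85% of genes. No member had an unadjusted p under 0.05 here, where 12.8% of genes did, and 0% of genes passed after adjustment. The smallest exact p that 4 against 4 mice can give is 0.0286.

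Levels can be compared between the members only per length, and counts were therefore divided by the length of the reference transcript (3.111 kb for Cpeb1, 7.05 kb for Cpeb2, 5.899 kb for Cpeb3 and 6.303 kb for Cpeb4). The reference is the longest basic coding transcript, so the order could change if liver uses shorter ones. Over the 8 mice, Cpeb4 was at 3.70 ± 1.18 CPM per kb, Cpeb2 at 2.20 ± 0.552, Cpeb1 at 1.58 ± 0.255 and Cpeb3 at 1.004 ± 0.261 (SD, n = 8). Cpeb4 was above Cpeb2 in 7 of 8 mice, the exception being S155A replicate 3. Cpeb2 was above Cpeb1 in 6 mice and Cpeb1 above Cpeb3 in 7. The ranges over the mice overlapped for each pair of neighbours in this order.

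By genotype, Cpeb4 was at 4.62 ± 0.876 CPM per kb in WT and 2.79 ± 0.509 in S155A, next to 2.27 ± 0.765 and 2.14 ± 0.341 for Cpeb2 (SD, n = 4 each). The ratio of Cpeb4 to Cpeb2 in CPM was 1.50 to 2.15 in WT mice and 0.785 to 1.72 in S155A mice, so the ranges overlapped. The summed CPM of the family, which is not corrected for length and so weighs long transcripts more, was 44.6 to 68.4 CPM in WT and 42.9 to 43.9 CPM in S155A. Cpeb4, for which the family was selected, made up a mean of 52.07% of the sum in WT and 40.55% in S155A. The separation of the sums is therefore not independent of that selection.

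**Figure D2:**
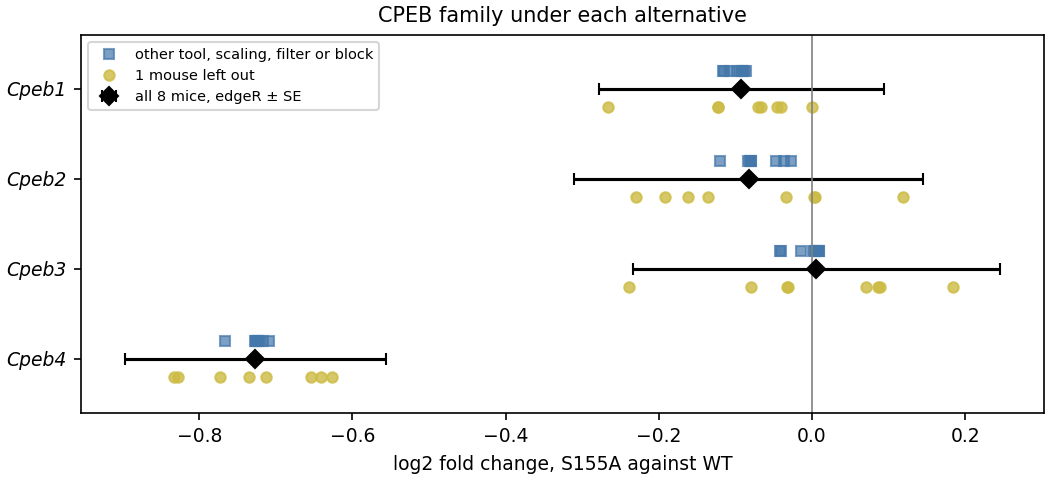
Log2 fold change of each CPEB gene, S155A against WT, with all 8 mice (diamond, ± SE), with another tool, scaling, filter or block (squares) and with 1 mouse left out (circles). The values of Cpeb4 range from -0.83 to -0.63 and those of Cpeb1 from -0.27 to 0.00034. Those of Cpeb2 and Cpeb3 lie on both sides of 0.

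Genes whose level followed each member were named by Pearson's r of log2 CPM over the 8 mice, among 13163 genes per member. Such values are the highest of many and come from 8 shared libraries, so they are a description. For Cpeb4 they were Slc44a1, a choline transporter (r = 0.959), Golgb1, which encodes the Golgi protein giantin (0.936), and Arhgef11 (0.936). With the genotype means removed, r was 0.857, 0.869 and 0.785. Slc44a1 was at 30.3 ± 2.87 CPM in WT and 23.8 ± 1.67 CPM in S155A (log2 fold change -0.35, SE 0.10), a smaller difference than that of Cpeb4. Golgb1 and Arhgef11 had log2 fold changes of -0.16 and -0.17. A gene picked for following Cpeb4 over mice of both genotypes tends to share its genotype difference, so these differences add no support.

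**Figure D3:**
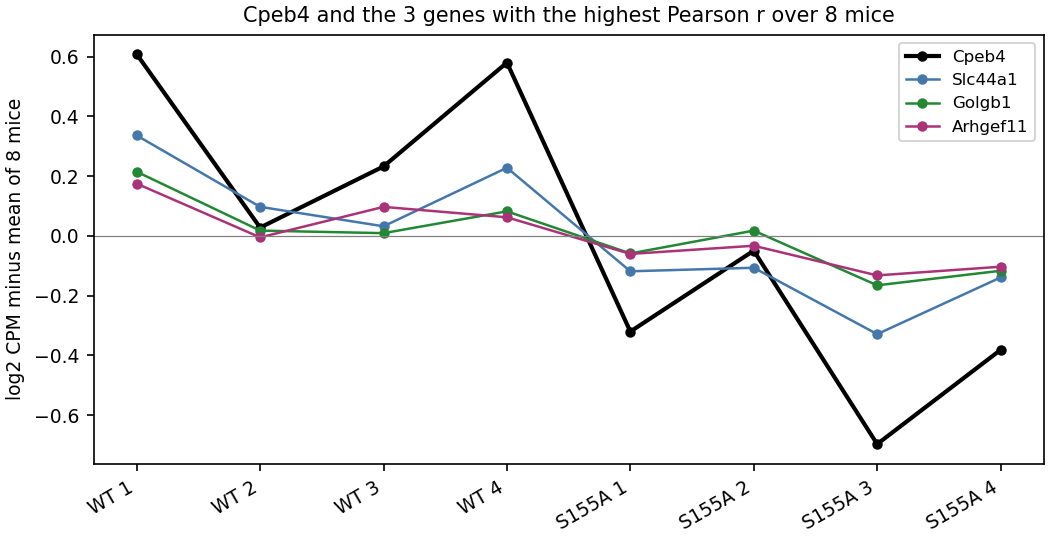
Log2 CPM of Cpeb4 and of the 3 genes with the highest Pearson r to it, each minus its mean over the 8 mice, with the lines drawn only to guide the eye. All 4 genes are highest in WT replicate 1 and lowest in S155A replicate 3, and Cpeb4 spans the widest range.

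The genes most like the other members were a different set for each. Cpeb1 was followed by Trim3, an E3 ubiquitin ligase (r = 0.979), Ttf2, a transcription termination factor (0.961), and Plin4, a lipid droplet coat protein of the PLIN5 family (0.956). S155A replicate 1 was the highest mouse for Cpeb1 and also for Plin4, at 182 CPM, and for Plin5. Without that mouse the r of Cpeb1 and Plin4 was 0.915. Cpeb2 was followed by Mb21d2 (0.955), the splicing factor gene Prpf38a (0.945) and Rbm41 (0.933).

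Cpeb3 was followed by Tspan32, a tetraspanin of blood cells (0.961), Ahnak2 (0.955) and Plcg2, a phospholipase of immune cell signaling (0.937). All 3 were low, at no more than 4.09 CPM in any mouse, and were highest in S155A replicate 3. Without that mouse r was 0.917, 0.916 and 0.868. Between members, the strongest relation was that of Cpeb2 and Cpeb3 (r = 0.63, n = 8), and Cpeb4 had r values of 0.29 with Cpeb1, 0.24 with Cpeb2 and -0.11 with Cpeb3.

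S155A replicate 3 stood apart in other genes too. The summed level of 9 lymphocyte markers was 1255 CPM in this mouse and 12.4 to 28.8 CPM in the other 7, and all 9 had a log2 fold change above 0. It was the highest mouse for Cpeb3 and the lowest for Cpeb4 and Cpeb1. Without it the log2 fold change of Cpeb4 was -0.63. The part of lymphocyte RNA in the level of Cpeb3 was not tested.

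The labels name the tissue as liver and the cell type as hepatocytes, and the sum of 6 hepatocyte markers was 84190 to 122500 CPM, with Alb the most abundant. Markers of other liver cells were also present, and no marker was at 0 in all mice. The 6 hepatic stellate cell markers summed to 216 to 286 CPM in WT and 97.4 to 218 CPM in S155A, and 0 of 6 had a log2 fold change above 0. The 6 endothelial markers summed to 127 to 183 and 108 to 146 CPM (2 of 6 above 0), the 6 Kupffer cell markers to 149 to 305 and 168 to 360 CPM (6 of 6), the 5 cholangiocyte markers to 27.1 to 85.4 and 36.7 to 43.8 CPM (1 of 5), and the 5 red cell genes to 411 to 2647 and 951 to 1154 CPM (0 of 5). The 7 pancreatic acinar genes summed to 29.2 CPM in WT replicate 2 and to at most 0.612 CPM in the other mice. None of these markers was called. The marker sum had an r with Cpeb4 of 0.32 for stellate cells, 0.40 for endothelial cells and -0.60 for lymphocytes. The lymphocyte sum was far highest in S155A replicate 3 (1255 CPM), the mouse with the lowest Cpeb4, and r without that mouse was not computed. Among S155A mice, the lowest stellate sum (97.4 CPM, replicate 2) went with the highest Cpeb4 (21.6 CPM). Among WT mice, the lowest stellate sum (216 CPM, replicate 2) went with the lowest Cpeb4 (22.8 CPM). Whether the share of any of these cells takes part in the level of Cpeb4 was not tested.

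Genes that work with CPEB proteins were examined next, together with mRNAs reported as their targets and with ER stress and clock genes. They made 7 lists with 112 different genes, of which 109 were tested. None was called between S155A and WT (0 higher and 0 lower, smallest edgeR adjusted p = 0.993), and 3 had an unadjusted p under 0.05, which is 2.75% of them against 3.40% of all genes. The median log2 fold change of all tested genes was -0.0050.

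The cytoplasmic polyadenylation machinery comprises the poly(A) polymerases, cleavage factors and poly(A) binding proteins. Of its 11 tested genes, 5 lay above 0 and 6 below (median -0.0018). Its extremes were Pabpc4, a poly(A) binding protein (log2 fold change 0.24, SE 0.13), Sympk, the scaffold symplekin (0.18, SE 0.098), Papd5, a noncanonical poly(A) polymerase (-0.23, SE 0.17), and Wdr33, a cleavage and polyadenylation subunit (-0.16, SE 0.15).

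The 17 deadenylation genes, which shorten tails, had 9 above 0 and 8 below (median 0.019). Of the CCR4-NOT subunits at the top, Cnot3 had a log2 fold change of 0.12 (SE 0.14) and Cnot2 of 0.086 (SE 0.14). At the bottom were Btg1, a deadenylase recruiter (-0.30, SE 0.28), and Pan3 of the PAN2-PAN3 deadenylase (-0.17, SE 0.11).

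Of the 20 genes of repression partners, 9 were above 0 and 11 below (median -0.012). Pum2, an RNA-binding repressor, had 34.5 ± 2.99 CPM in WT and 28.3 ± 2.48 CPM in S155A (SD, n = 4 each). Its mice did not overlap between genotypes, with 30.8 to 37.7 CPM against 24.8 to 30.4 CPM (log2 fold change -0.29, SE 0.11, unadjusted p = 0.0213, adjusted p = 0.993 by edgeR). The groups did not overlap for 2.30% of all tested genes either, and a gene of the cytoplasmic polyadenylation list separated in the opposite direction. Dcp2, the decapping enzyme, had a log2 fold change of -0.25 (SE 0.30), Eif4enif1, the eIF4E transporter 4E-T, of 0.25 (SE 0.14), and Ngdn, an eIF4E-binding protein known as neuroguidin, of 0.21 (SE 0.11).

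The kinases and other modifiers of CPEB proteins had 6 of 12 above 0 (median 0.029). The 2 highest were scarce in liver, namely Neurl1a with a log2 fold change of 0.69 (SE 0.74, 0 to 27 counts per mouse) and the mitotic kinase gene Cdk1 with 0.54 (SE 0.61, 7 to 52 counts). The value of Cdk1 moved to 1.53 without WT replicate 3 and to 0.25 without WT replicate 2. The calmodulin-dependent kinase genes Camk2d and Camk2b had -0.39 (SE 0.30) and -0.33 (SE 0.37).

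The mRNAs described as CPEB targets had 3 of 10 above 0 and 7 below (median -0.016). Ccnb1, the classical CPE-bearing cyclin mRNA, had 5 to 46 counts per mouse and a log2 fold change of 0.89 (SE 0.80), which was -0.37 without S155A replicate 3. Trp53 had 0.14 (SE 0.17), Plat -0.32 (SE 0.42) and Egfr -0.17 (SE 0.29). Of the 10 target transcripts, 6 had a CPE motif in the last 300 bases, where 36.4% of tested genes with a 3′ UTR that long did. Among the other lists it was 4 of 9 for cytoplasmic polyadenylation, 6 of 16 for deadenylation and 6 of 19 for repression partners. For kinases and modifiers it was 3 of 11, for ER stress 7 of 16 and for the clock 8 of 16.

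CPEB4 is linked in liver to the ER stress response and to the clock, and both lists were read by series as well. Of the 20 ER stress genes, 19 were above 0 and 1 below, with a median log2 fold change of 0.27 and 0 called. The median genotype difference was -0.25 among the low-numbered mice (3 of 20 above 0) and 0.78 among the high-numbered mice (19 of 20 above 0), so the list's median had opposite signs in the 2 series. Creld2, an ER chaperone-like protein, had a log2 fold change of 0.88 (SE 0.45) with -0.25 in the low and 1.65 in the high series. Sdf2l1, an ER-resident protein induced by unfolded proteins, had 1.25 (SE 0.62) with -0.35 and 2.39.

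Ern1, which encodes the ER stress sensor IRE1α, was the 1 gene of the ER stress list below 0. Its level was 35.1 ± 4.16 CPM in WT and 27.8 ± 3.30 CPM in S155A (SD, n = 4 each), with overlapping ranges of 31.7 to 40.9 and 25.1 to 32.6 CPM. The log2 fold change was -0.34 (SE 0.12, unadjusted p = 0.0188, adjusted p = 0.993 by edgeR), and the genotype difference was -0.33 in the low and -0.34 in the high series.

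Trib3, a pseudokinase gene induced by ER stress, had the smallest unadjusted p of the listed genes and is named after its values were seen. Its level was 7.42 ± 1.999 CPM in WT and 12.8 ± 3.53 CPM in S155A (SD, n = 4 each), with overlapping ranges of 5.24 to 9.95 and 8.08 to 16.5 CPM. The log2 fold change was 0.78 (SE 0.25, unadjusted p = 0.00972, adjusted p = 0.993 by edgeR), and the genotype difference of Trib3 was above 0 in both series, at 0.31 in the low and 1.23 in the high series.

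Of the 19 clock genes, 11 were above 0 and 8 below (median 0.025), and the median difference was -0.17 in the low and 0.092 in the high series. Ciart, a transcriptional repressor of the clock, ranged from 0.612 to 18.2 CPM in WT and from 0.494 to 54.5 CPM in S155A. Its log2 fold change was 1.70 (SE 1.25), with -0.87 in the low and 2.84 in the high series, and it moved to 0.54 with the series as a block and to 2.90 without WT replicate 2. Bhlhe41, another clock repressor, had 0.82 (SE 0.71), Npas2 -0.33 (SE 0.96) and Clock -0.26 (SE 0.25).

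**Figure D4:**
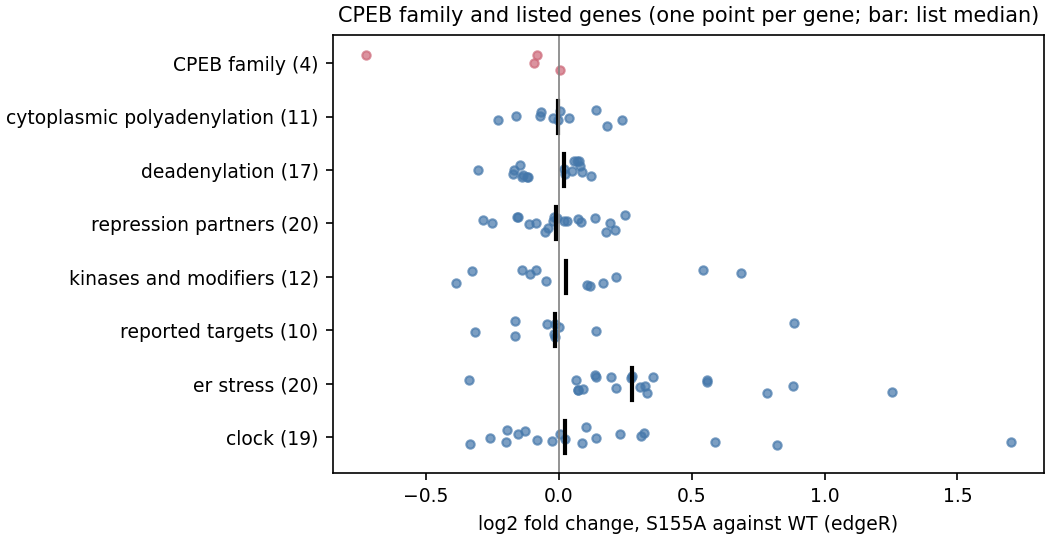
Log2 fold change, S155A against WT by edgeR, of the 4 CPEB genes (red) and of the tested genes of each list (blue, number in brackets), with 1 point per gene and a bar at each list's median. Cpeb4 at -0.73 lies below every listed gene, the ER stress list has its median at 0.27, and the other 6 lists have medians between -0.016 and 0.029.

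The mRNAs with a CPE motif in the last 300 bases were finally compared with those without, over all tested genes with a 3′ UTR of that length. The median log2 fold change was -0.039 in the 3991 genes with a motif, of which 58.8% were below 0, and -0.0099 in the 6966 genes without, of which 52.2% were below 0. Both sets come from the same 8 libraries, and their base composition was not compared.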

How the data were processed

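Poly(A) RNA of 8 livers was sequenced by the authors (Illumina TruSeq stranded mRNA, paired reads). The deposited table holds length-scaled estimated counts per gene that the authors made with salmon. Its version, annotation release and strand setting are not given in the sources used here. The submitters' processing notes name bcl2fastq, STAR, SAMtools, MultiQC, DESeq2 and build GRCm38, with no role. The table holds 0 columns outside the 8 mice. No 2 libraries agreed within sampling noise. The labels do not describe litters. The p-values set each difference against the spread between these mice and treat the mice as independent.

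Rounding gave whole counts. Low genes were filtered with edgeR's filterByExpr (4.0.16, R 4.3.3), scaled by TMM and tested by the quasi-likelihood test over all 14629 genes, with Benjamini-Hochberg adjustment at 0.05. All 8 mice entered each fit. Genotype was fitted alone, and the label number series (split at 500) and its interaction with genotype were fitted in models with both. Log2 CPM used a prior count of 2. The procedure was tested on simulated data. Alternatives were DESeq2 (1.42.0), limma-voom (limma 3.58.1), other scalings and filters, replicate and series blocks, and leaving out each mouse.

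The members and lists were chosen with earlier results of these data known. Named genes are the members, Plin5, the 3 genes per member with the highest r (predicted and Rik genes left out), and per list up to 2 genes with the largest positive and 2 with the most negative log2 fold change. Trib3 was named after its values were seen, and its alternatives were added then. CPE letters and coordinates come from GENCODE M21 on GRCm38. Other lists are markers of hepatocytes, Kupffer, endothelial, stellate, biliary, lymphoid, acinar and red cells.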

Additional observations from a re-analysis of the deposited data

Results flagged for a closer look

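In groups of 4 mice, a mouse whose gap to the nearest other exceeded the 95% critical value of Dixon's test was searched for in the 45 genes named, which makes 90 groups. Chance gives about 4.5 such mice, and 12 were found. Genes named for their likeness to a member share its outlying mouse, so these are not independent.

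S155A replicate 3 was involved in 6 of them. Cpeb3 was at 8.76 CPM in this mouse and at 4.92 to 5.12 CPM in the other 3 S155A mice. Tspan32 was at 1.14 CPM (others at most 0.389), Ahnak2 at 1.53 (0.573), Plcg2 at 4.09 (1.82) and Ccnb1 at 1.21 (0.277). Slc44a1 was low, at 21.3 CPM against 24.3 to 24.9 CPM.

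S155A replicate 1 was high for Papd5 (28.2 CPM, others at most 19.6) and Plin4 (182 CPM, others at most 52.5). S155A replicate 4 was high for Wdr33 (41.0 CPM, others at most 30.5). Among WT mice, replicate 1 was high for Plin5 (254 CPM, others at most 194) and Bhlhe41 (2.63 CPM, others at most 0.737), and replicate 3 was high for Cdk1 (1.10 CPM, others at most 0.261).

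The genotype difference of Cpeb2 had opposite signs in the 2 label number series, with every S155A mouse below the WT mice in the low series and above them in the high series. The share of all genes with such a pattern was not counted. The interaction was 0.82 on the log2 scale (edgeR adjusted p = 0.353), so it did not pass after adjustment.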

How the results depend on the processing

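The log2 fold change of Cpeb4 stayed between -0.83 (without S155A replicate 2) and -0.63 (without S155A replicate 3) over the 16 alternatives. That of Cpeb2 ranged from -0.23 to 0.12 and that of Cpeb3 from -0.24 to 0.18, each across 0. That of Cpeb1 ranged from -0.27 to 0.00034, with the highest value reached without S155A replicate 3. With all mice kept, the alternatives gave -0.12 to -0.087 for Cpeb1. Between the genotypes, 6 genes were called by DESeq2 against 0 by edgeR, and 0 under every other alternative. Between the series, DESeq2 called 408 genes and the fit with no filter 514, and leaving out 1 mouse gave 0 to 111 (111 without WT replicate 3, and 1 without S155A replicate 2 or replicate 4). For the interaction, DESeq2 called 285 genes, limma-voom 1 and the fit with no filter 765, and leaving out 1 mouse gave 0 to 40 (40 without WT replicate 4, 5 without S155A replicate 2 and 1 without WT replicate 3). The cause was not tested. No listed gene was called under any alternative.

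The series difference of Cpeb3 turned sign with limma-voom (-0.0048), with library size alone (-0.034) and when 1 mouse was left out (-0.24 to 0.24). Among the listed genes named in the text, which are the ones refitted singly, leaving out 1 mouse turned the genotype difference of 5, none of them called: Egfr (-0.41 to 0.045), Dcp2 (-0.43 to 0.021), Npas2 (-0.82 to 0.83), Cnot2 (-0.023 to 0.17) and Ccnb1 (-0.37 to 1.40). List medians and likeness, whose alternatives were added after seeing the data, gave an ER stress median of 0.13 (without S155A replicate 2) to 0.40 (without S155A replicate 1). The medians of the other lists all crossed 0. They were -0.044 to 0.044 for cytoplasmic polyadenylation, -0.072 to 0.050 for deadenylation and -0.047 to 0.030 for repression partners. For kinases and modifiers they were -0.098 to 0.045, for targets -0.14 to 0.0041 and for the clock -0.086 to 0.21.

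The deviations of same-numbered WT and S155A mice from their genotype means had r of 0.056, 0.17, -0.11 and 0.13 for replicates 1 to 4. Mice of unlike replicate number had r of -0.19 to 0.14. These values cannot decide whether the numbers pair the mice, and same-numbered mice also share a label number series. With the replicate number as a block, 0 genes were called (579 at an unadjusted p under 0.05), and Cpeb4 was at -0.73. With the series as a block, 0 were called (621), and Cpeb4 was at -0.71. Depth limits genes with few counts per mouse, such as Ccnb1, Cdk1 and Neurl1a.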
